A study of Mus musculus with 8 samples.

Results

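A set of 5 genes separated WT tumor-associated macrophages (TAMs) from every TAM library of Unc93b1 3d/3d mice. They were Negr1, 4930570G19Rik, Asb2, Adrb1 and Ankdd1a, that is 5 of the 26939 genes in the joined count tables. Other genes did so too, as 655 of 13833 genes with at least 10 counts in every WT library showed no overlap in this direction. The set was selected on the measured values themselves, with both WT groups standing far above all Unc93b1 3d/3d libraries, so the genotype differences of these 5 genes are given below as a description and carry no test. The contrast of anti-MARCO antibody (αMARCO) with control within WT mice was not itself used for the selection and was tested. It uses the same WT libraries whose high levels selected the set, so the test is not independent of the selection.

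The libraries came from bulk RNA-seq of viable cells that were positive for CD45, CD11b and F4/80 and negative for Gr-1, sorted as TAMs on day 21 from orthotopic EO771 breast tumors in female mice of 8 to 14 weeks. The 8 libraries came from WT and Unc93b1 3d/3d mice, each as control or with αMARCO, and every group had 2. The 3d allele is a point mutation of Unc93b1, and WT animals were C57BL/6J mice; a shared litter is not stated in the sources used here. Treated mice received 100 µg of the rat IgG1 clone ED31 on days 3, 6, 9 and 12. The control mice are called untreated or PBS in the labels and isotype-treated in the study's methods, so the control injection is not settled. Each control library was a pool of TAMs from 3 mice. Separate mice are not stated for the αMARCO libraries, and p-values measure the spread between 2 libraries per group. One label field gives the second Unc93b1 3d/3d control library as 3d/4d while its title gives 3d/3d, and the title was followed.

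UNC93B1 is a chaperone of the endoplasmic reticulum that carries the nucleic acid-sensing Toll-like receptors TLR3, TLR7 and TLR9 to endosomes, and cells homozygous for the 3d allele do not signal through them. MARCO is a scavenger receptor found on subsets of macrophages. The members of the set belong to unrelated families. Negr1 encodes a GPI-anchored adhesion molecule of the IgLON family, best known from neurons, and 4930570G19Rik is a long intergenic RNA next to it. Asb2 encodes the substrate-recognition subunit of a Cullin-5 ubiquitin ligase that targets filamins and is induced by retinoic acid in myeloid cells. Adrb1 encodes the β1-adrenergic receptor, which couples to Gs and raises cAMP. Ankdd1a encodes a protein with ankyrin repeats and a death domain.

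Library totals ranged from 15182618 to 26411936 counts. A count of 3, taken as the detection floor of 1 library, corresponded to 0.116 to 0.204 CPM (counts scaled to a library total of 1000000), which covers counting error only. Unc93b1 itself was transcribed in every library, with 8585 to 13003 counts in the Unc93b1 3d/3d libraries and 15442 to 18331 in the WT libraries, and a point mutation is not tested by these counts. The second Unc93b1 3d/3d αMARCO library stood apart from its replicate, with a Pearson r of 0.938 on log2 CPM against 0.978 to 0.988 within the other groups. In that library, long genes were lower and short genes higher than in its replicate, with median log2 differences of -0.53 in the longest and 0.21 in the shortest of 3 equal length classes. Every mean, sum and fold of the Unc93b1 3d/3d αMARCO group includes this library, and the genotype folds of the 5 genes are given again without it. All 5 transcripts come from bulk RNA, in which fewer cells of a type and less RNA per cell cannot be told apart.

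Negr1 and 4930570G19Rik lie head to head on chromosome 3 of GRCm38. Negr1 spans chr3:156561794-157316445 on the plus strand, and 4930570G19Rik spans chr3:156546753-156561746 on the minus strand, so that their starts are 48 bp apart. Asb2 spans chr12:103321142-103356001 on the minus strand, Adrb1 spans chr19:56722372-56724862 on the plus strand, and Ankdd1a spans chr9:65488470-65520193 on the minus strand. Adrb1 shares its chromosome with Unc93b1, which ends 52.8 Mb upstream of it. In GENCODE M21, exons of Negr1, 4930570G19Rik, Asb2 and Adrb1 overlapped those of no other gene, and exons of Ankdd1a overlapped those of Spg21 by 1 bp on the opposite strand.

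Because the members differed together between genotypes, the 250 bases before their starts were examined in RefSeq windows of GRCm38.p6, which gave 6 windows for Negr1, 4930570G19Rik, Asb2 and Adrb1. Of these, 3 are printed here, 5′ to 3′ on the strand of the gene, since they hold the start shared by the divergent pair and the promoters of the other members with a window. The capitals mark matches to the motifs named after the sequences. The first window is chr3:156561544-156561793, plus strand. The next is chr12:103356002-103356251, minus strand, before the upstream start of Asb2. The last is chr19:56721867-56722116, plus strand, before the RefSeq start of Adrb1, which lies at 56722117.
Negr1: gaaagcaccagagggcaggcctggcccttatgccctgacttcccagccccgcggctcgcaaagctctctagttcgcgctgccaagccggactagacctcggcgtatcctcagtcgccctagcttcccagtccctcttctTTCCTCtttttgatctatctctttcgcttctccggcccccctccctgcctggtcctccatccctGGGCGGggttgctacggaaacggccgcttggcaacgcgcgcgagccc
Asb2: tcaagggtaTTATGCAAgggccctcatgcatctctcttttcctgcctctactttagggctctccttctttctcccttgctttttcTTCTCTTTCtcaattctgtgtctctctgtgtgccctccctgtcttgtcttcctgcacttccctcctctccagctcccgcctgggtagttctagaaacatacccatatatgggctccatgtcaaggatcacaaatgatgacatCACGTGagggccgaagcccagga
Adrb1: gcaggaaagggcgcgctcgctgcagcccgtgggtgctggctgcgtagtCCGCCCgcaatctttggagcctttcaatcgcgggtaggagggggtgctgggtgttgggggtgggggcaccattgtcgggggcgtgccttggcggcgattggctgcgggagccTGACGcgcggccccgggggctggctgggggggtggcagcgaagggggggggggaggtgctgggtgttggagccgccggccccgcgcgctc

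In total, 11 motifs were searched on both strands, and their share among all 32851 windows is given beside each. The GC box GGGCGG, known as the Sp1 motif, was found in all windows of the divergent pair, in the Adrb1 window and in the second Asb2 window, and in 32.7% of all windows. The PU.1 motif GAGGAA, named after a macrophage lineage factor, was found on the opposite strand 111 bases before the Negr1 start and 14 bases before the second Asb2 start (chr12:103338391-103338640), and in 23.3% of all windows. The CRE half-site TGACG, bound by cAMP-responsive factors, was found 90 bases before the Adrb1 start and 177 bases before the second Asb2 start, and in 17.8% of all windows. The printed Asb2 window held the E-box CACGTG (6.0% of all windows), the C/EBP motif TTGCNNAA (9.6%) and the interferon-stimulated response element GAAANNGAA (7.1%). No match in the 6 windows was found for AP-1 (TGANTCA, 6.7% of all windows), the full CRE (TGACGTCA, 1.5%), NF-kB (GGANTTTCC, 1.1%), NBRE (AAAGGTCA, 1.3%) or the nuclear receptor half-site AGGTCA (14.0%). NBRE contains the half-site, and the full CRE contains its half-site. The windows of Negr1 and Adrb1 were richer in G and C than the median window, at 63.6% and 74.0% against 52.4%, and the printed Asb2 window was at 50.0%. The GC box was the motif searched that was found in at least 1 window of each of the 4 genes. However, the windows of the divergent pair overlap. The Negr1 site 47 bases before its start is the same stretch as the 4930570G19Rik sites 65 and 6 bases before its starts. It is thus 1 site counted for both genes. A further match, 203 bases before the 4930570G19Rik start at 156561746, lay outside the Negr1 window. Asb2 had the match in its second window alone.

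In the WT TAMs the 5 genes were not equally abundant. Per length and library total (FPKM, which scales fragments to gene length and sequencing depth), Asb2 was the highest in WT control, with a mean of 18.6 ± 3.17 (SD, n = 2). Adrb1 followed with 4.53 ± 0.760 and Ankdd1a with 4.02 ± 1.58, and these neighbours in the order did not differ beyond their spread. Negr1 had a mean FPKM of 1.25 ± 0.0841 and 4930570G19Rik of 0.455 ± 0.200. In the Unc93b1 3d/3d control group, Ankdd1a was the highest of the set, at 0.833 ± 0.0216 FPKM, followed by Asb2 at 0.384 ± 0.0598 and Adrb1 at 0.119 ± 0.0609. Negr1 and 4930570G19Rik are listed at 0.

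Negr1 was read in all WT libraries and in no Unc93b1 3d/3d library. Its counts were 266 and 230 in WT control, 55 and 45 in WT αMARCO, and 0 in each of the 4 Unc93b1 3d/3d libraries. The genotypes did not overlap under either treatment. The mean level was 13.4 ± 0.886 CPM in WT control, at least 78.6-fold above the floor of the Unc93b1 3d/3d control libraries. Under αMARCO the WT mean was 2.20 ± 0.660 CPM, at least 12.98-fold above the floor of the mutant libraries and 16.3-fold without the library that stood apart.

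4930570G19Rik followed the same on and off pattern at lower counts. There were 48 and 24 counts in WT control, 27 and 19 in WT αMARCO, and 0 in each Unc93b1 3d/3d library. The WT control mean of 1.93 ± 0.846 CPM was at least 11.3-fold above the floor, and the WT αMARCO mean of 1.02 ± 0.408 CPM at least 6.02-fold, or 7.55-fold without the library that stood apart. At this depth a mutant level of up to 3 counts per library would not have been told from 0.

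Asb2 was low but detected in the mutant TAMs. Its counts were 1117 and 1353 in WT control, 669 and 797 in WT αMARCO, 24 and 24 in Unc93b1 3d/3d control, and 43 and 36 in Unc93b1 3d/3d αMARCO. All WT libraries lay above all mutant libraries by more than the spread within any group. The mean was 66.9 ± 11.5 CPM in WT control against 1.36 ± 0.204 CPM in the mutant control, a 49.1-fold ratio. Under αMARCO the means were 31.6 ± 1.22 and 2.19 ± 0.359 CPM, a 14.4-fold ratio, or 16.3-fold without the library that stood apart.

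Adrb1 was close to the detection floor in the mutant TAMs. It had 243 and 182 counts in WT control, 45 and 91 in WT αMARCO, 3 and 8 in Unc93b1 3d/3d control, and 5 and 3 in the mutant with αMARCO. The genotypes did not overlap, and 2 of the 4 mutant libraries were at the floor of 3 counts. The control means were 11.4 ± 1.91 and 0.297 ± 0.154 CPM, a 38.5-fold ratio, and the αMARCO means were 2.85 ± 0.938 and 0.215 ± 0.0153 CPM, a 13.3-fold ratio, or 12.6-fold without that library, where 5 counts are left.

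Ankdd1a was lower but not near silence in most mutant libraries. Its counts were 146 and 246 in WT control, 251 and 274 in WT αMARCO, 34 and 44 in Unc93b1 3d/3d control, and 36 and 5 in the mutant with αMARCO. The genotypes did not overlap. The control means of 10.7 ± 4.21 and 2.18 ± 0.0691 CPM gave a 4.88-fold ratio, and the αMARCO means of 11.4 ± 1.14 and 0.982 ± 0.908 CPM gave an 11.6-fold ratio. The value of 5 counts came from the library that stood apart, and without it the ratio was 7.001-fold.

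**Figure D1:**
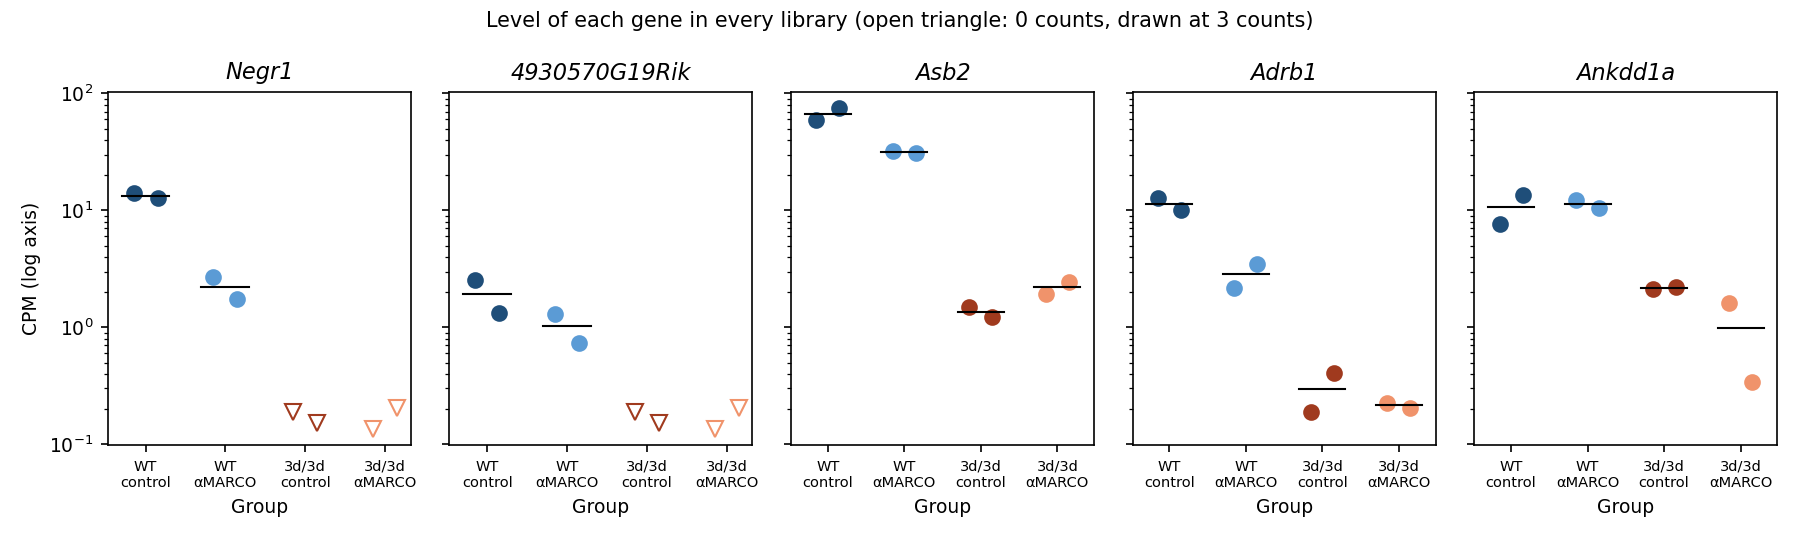
CPM of each of the 5 genes in every library, on a log axis, with 1 point per library, a black line at the mean of each group of 2, and an open triangle at 3 counts for a library with 0 counts. Negr1 and 4930570G19Rik have triangles in all 4 Unc93b1 3d/3d libraries, and Ankdd1a has the narrowest gap between control genotypes, at 4.88-fold.

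The set was placed among all genes by the ratio of the lowest WT CPM to the highest Unc93b1 3d/3d CPM, with the floor used where the mutant count was under 3. Of 13833 genes with at least 10 counts in every WT library, 655 had a ratio of 1 or more, that is, no overlap in this direction, and 17 had a ratio of 5 or more. The median ratio was 0.645. Asb2 ranked 6th with a ratio of 12.6, Negr1 9th with 8.51, Adrb1 15th with 5.38, 4930570G19Rik 30th with 3.59 and Ankdd1a 34th with 3.44. The ratios of Negr1 and 4930570G19Rik are bounds, since both were at 0 in the mutant. Just around the lowest member, Fpr1 at rank 33 had a ratio of 3.47 and Cxcl13 at rank 35 a bound of 3.40. The 10 highest ratios belonged to Fcrl5 (162), Pydc3 (23.5), Itgad (19.5), Cd300e (18.4), Ptprm (13.7), Asb2, Htra4 (10.9), Klra17 (10.6), Negr1 and a transcript without annotation on chromosome 3 (6.81). Of the 13833 genes, 4 had 0 counts in all 4 mutant libraries, and they were Negr1, 4930570G19Rik, Cxcl13 and that transcript.

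**Figure D2:**
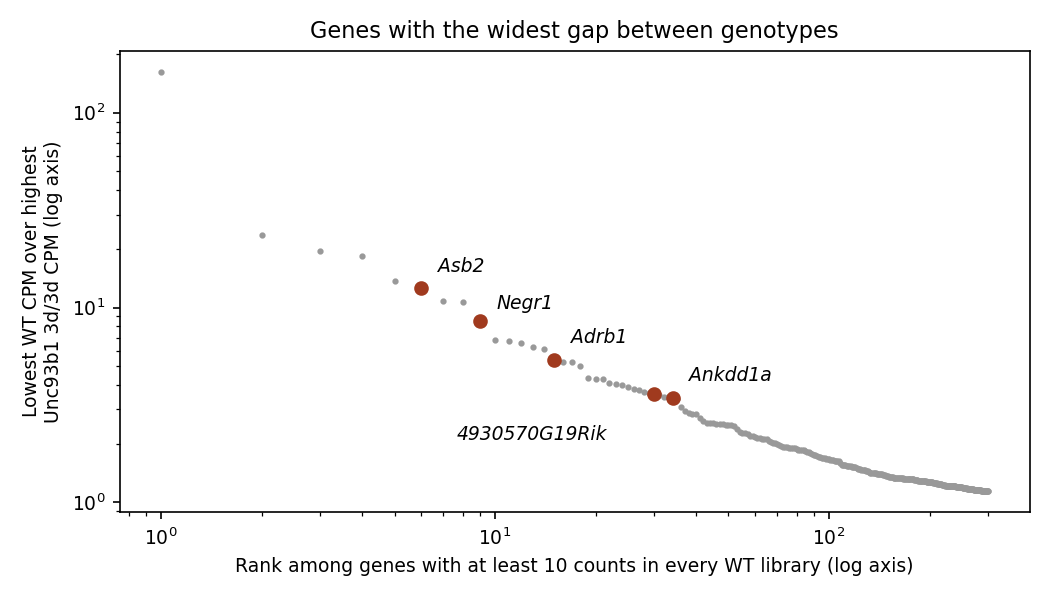
Ratio of the lowest WT CPM to the highest Unc93b1 3d/3d CPM against rank, for the 300 highest of 13833 genes, on log axes, with the 5 genes in red. Asb2 lies at rank 6 with a ratio of 12.6 and Ankdd1a at rank 34 with 3.44, where the curve has flattened.

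For comparison, 1027 of 15600 tested genes (6.58%) had a higher level in control TAMs of WT mice than of the mutant, and 998 (6.4%) a lower one. A call required edgeR's quasi-likelihood test to give an adjusted p no larger than 0.05 with a log2 change of 0.5 or more in either direction. Under αMARCO, 0 of 15722 genes were called higher (0%) or lower (0%) in WT by edgeR, although 1076 had an unadjusted p of at most 0.05, and DESeq2 called 214. Without the second Unc93b1 3d/3d αMARCO library, edgeR called 1252 genes in this comparison, and without the first it called 6366. Nothing about the 5 genes is read from these counts, because the genotype difference selected them.

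With αMARCO, 3 of the 5 genes were called lower in WT TAMs, Negr1, Adrb1 and Asb2. The contrast itself did not select them, but their high levels in these same WT libraries did. Over all 15630 genes tested by edgeR's quasi-likelihood test, 1843 (11.8%) were called lower and 1393 (8.91%) higher. The median log2 fold change was -1.07 over the 5 members and -0.01 over all tested genes. This comparison uses the same WT control libraries as the genotype comparison in controls.

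For Negr1, the counts given above fell from 266 and 230 to 55 and 45. Its log2 fold change was -2.61 (SE 0.24, adjusted p = 0.000127 by edgeR's quasi-likelihood test), so that 16.5% of its WT control CPM was left. Its fold change was lower than that of all but 1.09% of the tested genes. In the 10 alternative settings, the log2 fold change stayed between -2.92 and -2.32 and Negr1 was called in each.

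Adrb1 fell from 243 and 182 counts to 45 and 91. Its log2 fold change was -1.98 (SE 0.26, adjusted p = 0.000634 by edgeR's quasi-likelihood test), leaving 24.9% of the WT control CPM. The call was lost when all 8 libraries entered 1 model, where the log2 fold change was -2.00 with an adjusted p of 0.0529 from edgeR, and was kept in the other 9 alternatives, whose adjusted p went down to 1.53e-15.

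Asb2 fell from 1117 and 1353 counts to 669 and 797. Its log2 fold change was -1.07 (SE 0.12, adjusted p = 0.000377 by edgeR's quasi-likelihood test), and 47.2% of the WT control CPM was left. It was called in all 10 alternatives, with log2 fold changes between -1.25 and -0.89. Its highest adjusted p over these edgeR and DESeq2 settings was 0.0468, also close to the threshold.

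4930570G19Rik and Ankdd1a did not pass the test. 4930570G19Rik had 48 and 24 counts in WT control and 27 and 19 with αMARCO, so the groups overlapped in counts though not in CPM, where the nearest libraries were at 1.33 and 1.31, with a log2 fold change of -0.93 (SE 0.49, adjusted p = 0.165 by edgeR). It passed the test without the second WT control library, where its log2 value was -1.32 (adjusted p = 0.0298 from edgeR, against up to 0.629 over the 10 alternatives). Ankdd1a had a log2 fold change of 0.10 (SE 0.26, adjusted p = 0.786 by edgeR), which turned to -0.26 without the first WT control library and to 0.56, with an adjusted p of 0.0335 from edgeR, without the second. Over all alternatives the adjusted p lay between 0.0335 and 0.991. The 2 WT control libraries of Ankdd1a thus lay farther apart, at 146 and 246 counts, than the group means.

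The ratio within the divergent pair was taken in each WT library. There were 5.54 and 9.58 counts of Negr1 per count of 4930570G19Rik in the WT control libraries, and 2.04 and 2.37 in the WT αMARCO libraries. The ratios of the groups did not overlap, but 2 against 2 libraries cannot give an exact permutation p below 0.333, so this difference could not be tested.

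**Figure D3:**
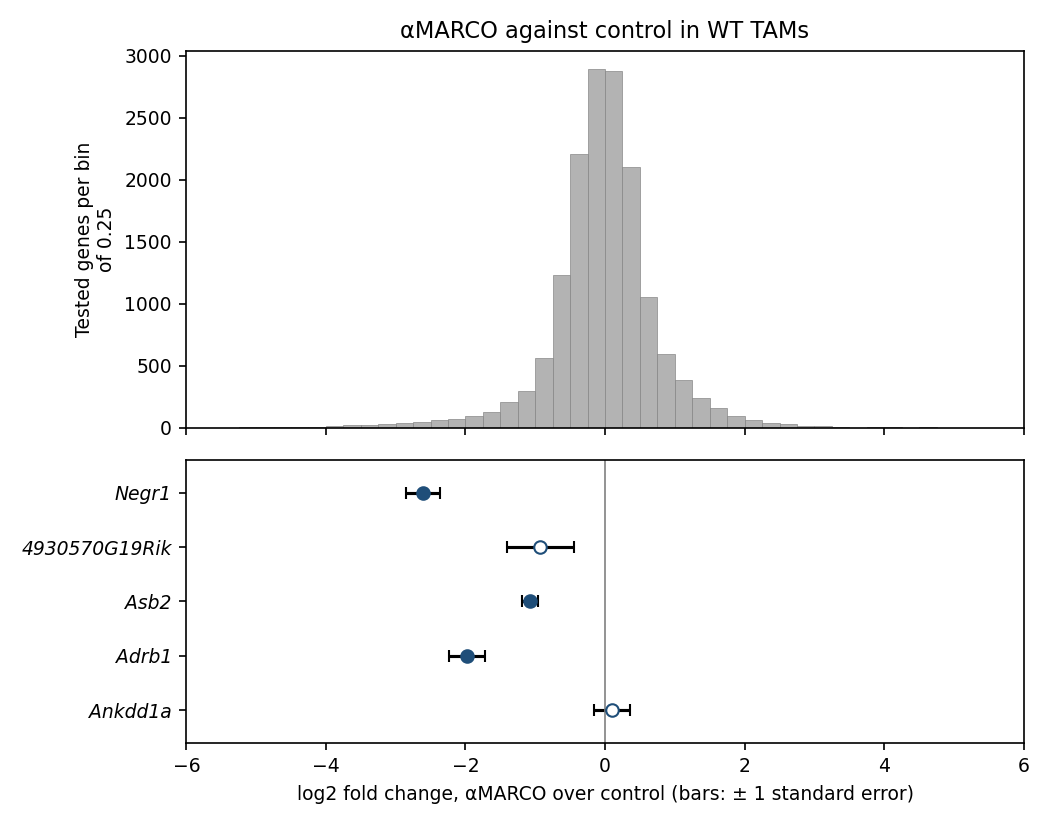
Upper panel: number of tested genes by log2 fold change of αMARCO over control in WT TAMs, in bins of 0.25. Lower panel: the 5 members with 1 standard error on each side, filled where called, with Negr1 at -2.61, Adrb1 at -1.98 and Asb2 at -1.07 filled and Ankdd1a at 0.10 open.

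After αMARCO, the WT libraries of Negr1, Asb2 and Adrb1 still lay above every Unc93b1 3d/3d library. The selection of the set required this order, so it is a description only. The lowest WT αMARCO count was 45 for Negr1, 669 for Asb2 and 45 for Adrb1, against highest mutant counts of 0, 43 and 8.

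In Unc93b1 3d/3d TAMs, αMARCO had no effect that passed the test on any member that could be tested. Of 15428 genes, 0 were called by edgeR (0%) and 60 by DESeq2, while 744 reached 0.05 before adjustment. Without the second Unc93b1 3d/3d αMARCO library edgeR called 571 genes, and without the first 5500. Negr1, 4930570G19Rik and Adrb1 had too few counts to enter this comparison. Asb2 had 24 and 24 counts without and 43 and 36 with αMARCO, at a log2 fold change of 0.69 (SE 0.51, adjusted p = 0.823 by edgeR). Ankdd1a had a log2 fold change of -1.11 (SE 0.76, adjusted p = 0.823 by edgeR), which became -2.64 with an adjusted p of 0.00398 (and up to 0.9999 in other settings) when the first αMARCO library was left out and the library that stood apart remained.

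The difference between the αMARCO effects of the genotypes could be estimated for Asb2 and Ankdd1a. Across 16620 genes, 0 were called by edgeR (0%) and 211 by DESeq2, while 2549 reached 0.05 before adjustment. For Asb2 the effect was lower in WT by 1.76 on the log2 scale (-1.76, SE 0.32, adjusted p = 0.281 by edgeR). The adjusted p ranged from 0.000362 to 0.656 over 13 alternatives, of which 4 called it: DESeq2, no filter on low counts, and leaving out either Unc93b1 3d/3d αMARCO library. Adrb1 had 3 to 8 counts in the mutant libraries, too few to estimate an effect there, and its difference is not given. For Ankdd1a it was 1.16 (SE 0.75, adjusted p = 0.424 by edgeR), and 2.75 with an adjusted p of 0.00353 without the first Unc93b1 3d/3d αMARCO library, against up to 0.703 in the other alternatives.

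The genes around the members were compared to see how far the pattern extended along the chromosome, within 500 kb. Near Negr1, 11 genes were listed and the nearest was 4930570G19Rik. The next ones, Gm42946 and Gm42942, lie inside Negr1 and had at most 7 counts in any library. Leaving out 4930570G19Rik, which is a member, 1 of the 11 could be tested in controls, Zranb2. It was not called between genotypes by edgeR, while Mir186 was called higher with αMARCO in WT.

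Around Asb2, 8 of 17 genes were tested and 2 were called higher in WT control by edgeR. One of them, Gm15523, is an antisense gene that overlaps Asb2 without sharing exons, with 27 and 52 counts in WT control, 27 and 26 in WT αMARCO, 11 and 3 in the mutant control, and 2 and 0 in the mutant αMARCO libraries. Its log2 fold change between control genotypes was 2.37 (adjusted p = 0.0436 by edgeR). Strandedness is not given in the sources used here, and without strand, reads of Gm15523 and of Asb2 precursors cannot be told apart. Otub2, which starts 32681 bp away and encodes a deubiquitinase, had 114 and 77 counts in WT control against 55 and 52, and was not called.

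Around Adrb1, 7 of 11 genes were tested, and those called higher in WT control by edgeR included Plekhs1 and Ablim1. Plekhs1 had 50 and 44 counts in WT control, 5 and 12 in WT αMARCO, 1 and 4 in the mutant control, and 2 and 2 in the mutant αMARCO libraries. It was thus high in the WT control libraries alone, and its log2 fold changes were 4.11 between control genotypes and -2.79 with αMARCO in WT, both called. The 3 nearest genes to Adrb1 started 99818 bp or more away. Of these, Ccdc186 was tested and not called, and Tdrd1 and Vwa2 had at most 8 counts in any library and were not tested.

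Around Ankdd1a, 17 of 32 genes were tested and 2 were called higher in WT control by edgeR, Gm17749 and Pclaf. Gm17749 is a processed transcript on the same strand that starts 9613 bp upstream. It had 134 and 248 counts in WT control, 142 and 180 in WT αMARCO, 52 and 53 in the mutant control, and 20 and 13 in the mutant αMARCO libraries. Its WT αMARCO mean was 6.92 CPM against 10.4 in WT control, where Ankdd1a had 11.4 and 10.7 CPM. Spg21, which abuts the end of Ankdd1a, was not called.

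**Figure D4:**
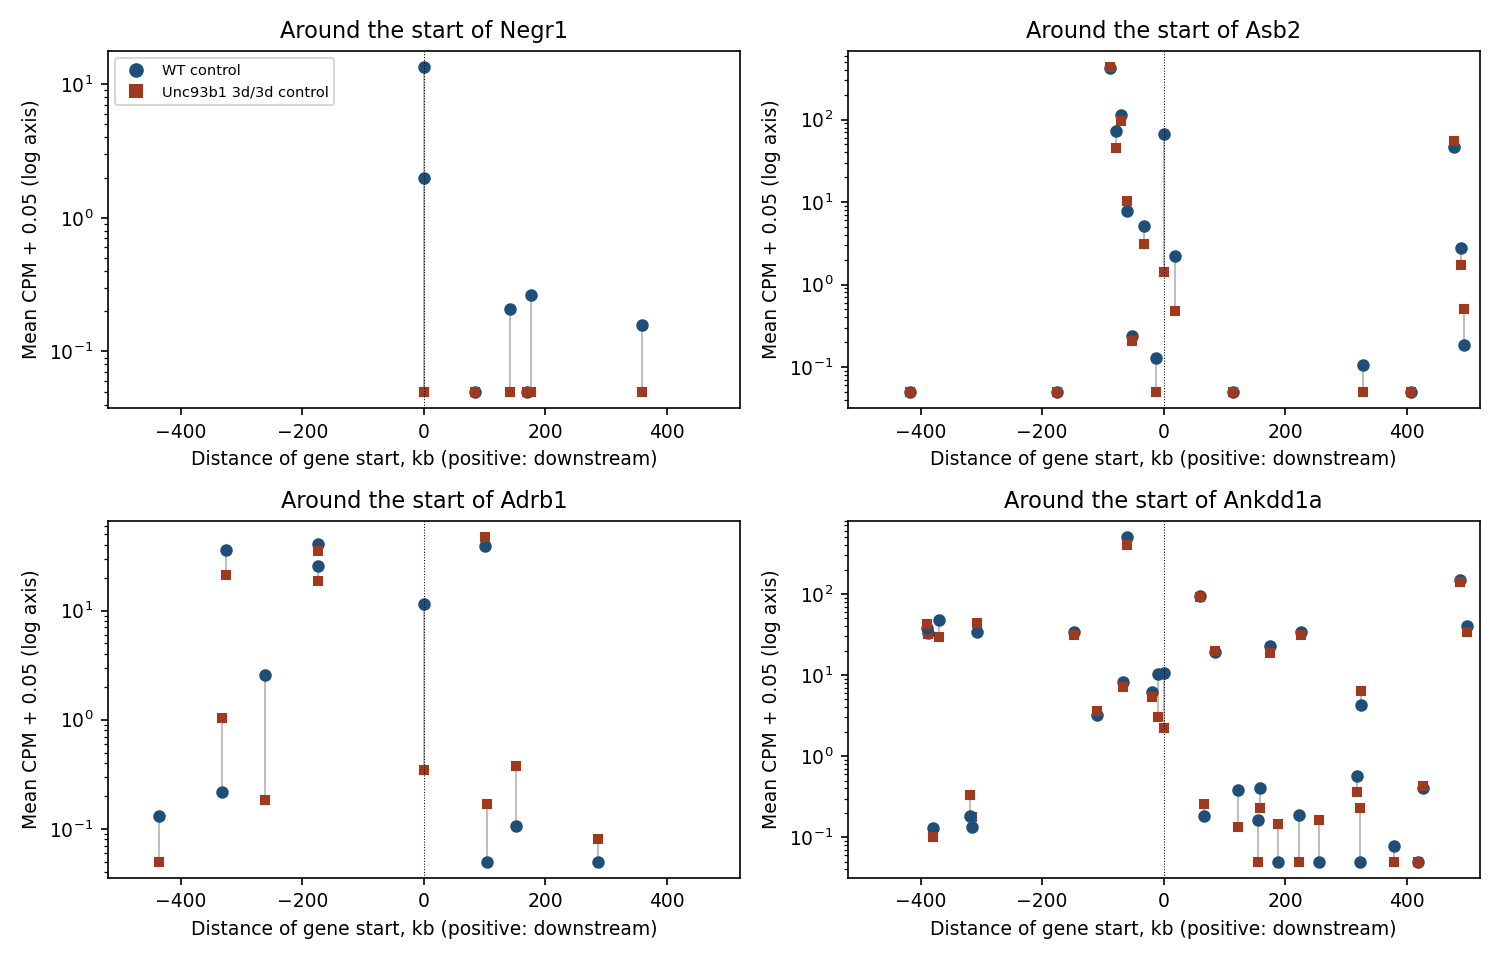
Mean CPM plus 0.05 on a log axis for genes whose start lies within 500 kb of the start of Negr1, Asb2, Adrb1 or Ankdd1a, with positive distances downstream, blue circles for WT control and red squares for Unc93b1 3d/3d control, joined for each gene. The member stands at 0, and wide gaps are seen for it and for single neighbours such as Plekhs1 upstream of Adrb1.

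Genes in the families and pathways of the members were called in both directions. With αMARCO in WT, 18 of 65 tested genes of these lists were called by edgeR (27.7%, against 20.7% of all tested genes), 9 of them higher. Between control genotypes, 12 of 67 were called (17.9%, against 13% of all tested genes), 7 of them higher in WT. Of the other IgLON genes, Lsamp and Opcml had at most 4 counts and Iglon5 at most 21 counts in any library, and none passed the filter on low counts. Iglon5 was called lower in WT control than in the mutant in 2 alternatives, without the filter and without the first WT control library. Of the other ASB genes, 7 were tested and 0 were called between control genotypes or with αMARCO in WT by edgeR, with median log2 fold changes of -0.05 and 0.21. Of the 6 core genes of the Cullin-5 ligase, Ube2f was called higher in WT control (0.52) and Cul5 lower (-0.51), both as log2 fold changes against the mutant. With αMARCO in WT, Arih2 (0.65) and Cul5 (0.58) rose and Elob fell (-0.52). Each of these directions held between 0 and 2 called genes when 1 library was left out.

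Among the filamins, the targets of the ASB2 ligase, Flna was higher in WT control than in the mutant, at 1775 against 1177 CPM, with a log2 fold change of 0.58 (adjusted p = 0.0093 by edgeR). Flnc was lower at -0.79 (adjusted p = 0.00997). Leaving out 1 library left 0 or 1 called filamin in each direction.

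Retinoic acid genes were examined because Asb2 is a retinoic acid target. In the control genotypes, 11 were tested and 1 was called, Dhrs3, which reduces retinaldehyde, at a log2 fold change of -1.16 in WT against the mutant (adjusted p = 0.000247 by edgeR). With αMARCO in WT, 1 of 10 tested genes was called higher and 4 lower. Aldh1a2, which makes retinoic acid, rose by 2.15 on the log2 scale, while Aldh1a3, with the same function, went from 0.834 to 0.0579 CPM, the latter under the floor, and log2 fold changes were lower for Cyp26b1, which degrades retinoic acid (-1.39), the binding protein Crabp1 (-0.82) and the receptor Rxra (-0.51). Aldh1a2, Aldh1a3 and Cyp26b1 lay under 5 CPM in every group mean, and between 1 and 3 genes were called lower when 1 library was left out.

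Of the genes that act downstream of β receptors through cAMP, 18 were tested in controls. Adcy6, an adenylate cyclase, was higher in WT by a log2 fold change of 1.94 and Pde4d, which degrades cAMP, by 1.56, while Adcy9 (-1.29) and Pde4a (-0.50) were lower. With αMARCO in WT, a comparison that shares the WT control libraries, Adcy6 was at -2.98, Pde4d at -1.09, Adcy9 at 0.83 and Pde4a at 0.55, and all 4 were called. Adcy4 (1.16) and Adcy3 (-0.86) were also called with αMARCO, and between 0 and 3 genes were called higher when 1 library was left out. Of 7 genes that desensitize β receptors, Grk3 was called higher in WT control (log2 fold change 0.996) and Arrb2 higher with αMARCO in WT (0.56). Among 6 CREB targets, Per1 (0.69) and Nr4a1 (0.61) rose with αMARCO in WT, and 0 were called between control genotypes by edgeR.

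For Ankdd1a, the paralog Ankdd1b had at most 1 count in any library. Of 8 tested genes in the list of this paralog and HIF oxygen sensing, Egln2 was called higher in WT control at a log2 fold change of 0.57, and 0 were called with αMARCO in WT by edgeR.

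The genes whose levels followed each member over the 8 libraries were listed by Pearson r of log2 CPM among 16620 genes, as a description, since the points are 4 groups that differ as the selection requires. Negr1 was most like Pecam1 (0.996), Gpr18 (0.995) and Cxcl13 (0.993), and Adrb1 most like Itgad (0.996), Vnn3 (0.993) and Gpr18 (0.988). Asb2 was most like Cd300e (0.995), BC049352 (0.995) and Nxpe4 (0.993), and 4930570G19Rik most like the same unannotated transcript, Cxcl13 (both 0.991) and Fcrl5 (0.984). Ankdd1a was most like Vav2 (0.990), Pik3r5 (0.990) and Sipa1l1 (0.989). Among the members, r was 0.982 between Negr1 and Asb2 and 0.986 between Negr1 and Adrb1, and 0.839 to 0.861 between Ankdd1a and the others.

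Markers of the sorted cells and of other cells were summed in each library, and the lists did not all follow the same groups. The 10 macrophage markers summed to 12082 to 17823 CPM in all libraries. The 12 nonclassical monocyte markers, among them Cd300e, summed to 2398 to 2565 CPM in WT control, 2009 to 2190 in WT αMARCO, 772 to 880 in Unc93b1 3d/3d control and 1069 to 1404 in Unc93b1 3d/3d αMARCO. Of the 12, 7 were called higher in WT control by edgeR, and 5 were called lower and 1 higher with αMARCO in WT. Their sums were thus higher in WT under both treatments, as were the members. The type 1 dendritic cell, B cell and endothelial sums given below were too. The nonclassical list was mixed, as Ace was at 19.5 CPM in WT control and 20.8 in the mutant control. Under αMARCO, Nr4a1 was at 805 CPM in WT and 790 in the mutant, and Eno3 at 16.7 and 19.5. Cd300e, at 586 CPM in WT control and 8.80 in the mutant control, ranked 4 by the genotype ratio above.

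The 13 detected T cell markers of 14 listed summed to 151 to 168 CPM in WT control and to 17.4 to 35.1 in Unc93b1 3d/3d control. All 13 were called higher in WT control, and all 13 were called lower with αMARCO in WT, where they summed to 15.7 to 24.6 CPM. NK cell markers summed to 100 to 114 CPM in WT control and to 8.44 to 33.3 CPM in the other groups. Mature dendritic cell markers summed to 447 to 879 CPM in WT control and to 66.3 to 120 CPM in the other groups. B cell markers summed to 39.4 to 43.6 CPM in WT control, 19.9 to 20.4 in WT αMARCO, and 4.92 to 7.99 in the mutant groups. Most of this sum was Cd79b, at 38.9 CPM in WT control and 2.58 in the mutant control, while Ms4a1 was at 0.934 and 0.931 and Pax5 at 0.707 and 1.58 CPM. Type 1 dendritic cell markers summed to 297 to 309 CPM in WT control and 116 to 117 in WT αMARCO. They summed to 95.2 to 111 CPM in the mutant control and 61.1 to 80.2 in the mutant with αMARCO. Endothelial markers summed to 286 to 290 CPM in WT control, 192 in both WT αMARCO libraries and 87.6 to 124 in the mutant groups. Most of the gap was Pecam1, at 200.7 CPM in WT control and 26.5 in the mutant control, while Kdr was at 77.3 and 72.4 and Cdh5 at 7.85 and 10.4 CPM. Fibroblast markers summed to 87.7 to 112 CPM in WT control, 160 to 190 in the mutant control, 26.6 to 39.7 in WT αMARCO and 80.4 to 172 in the mutant with αMARCO. Neutrophil markers summed to 20.3 to 81.3 CPM, classical monocyte markers to 610 to 1477 CPM and epithelial or tumor cell markers to 30.9 to 106 CPM over all libraries. Apart from 1 T cell marker not analysed here, no listed marker was at 0 in all libraries. The part of these cells in the levels of the 5 genes was not tested.

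**Figure D5:**
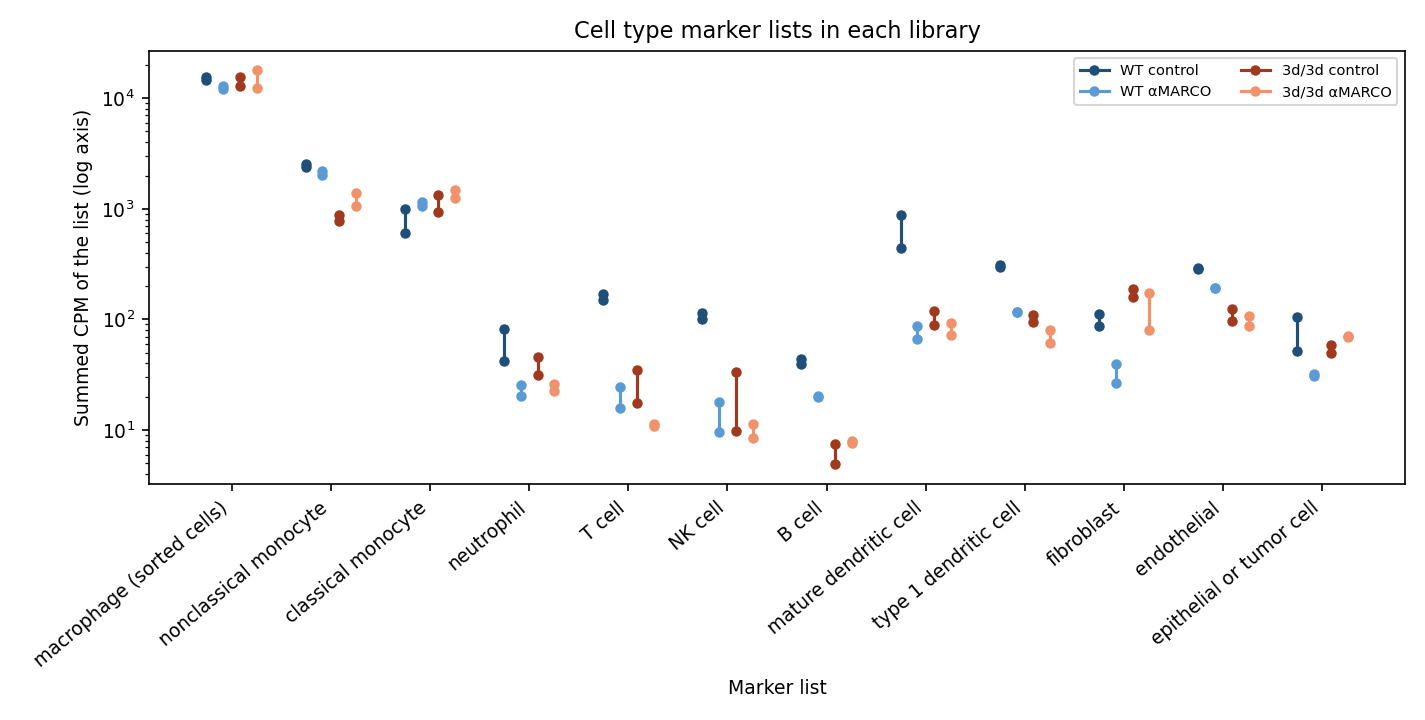
Summed CPM of each marker list on a log axis, with 1 point per library and the 2 libraries of a group joined. Nonclassical monocyte, type 1 dendritic cell, B cell and endothelial markers lie higher in both WT groups. T cell, NK cell and mature dendritic cell markers are high in the WT control libraries.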

How the data were processed

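TAM mRNA was selected by poly-A and sequenced on an Illumina NovaSeq instrument. According to the study's methods and the submitters' processing notes, the authors cleaned reads with fastp, aligned them to GRCm38 with HISAT2 2.0.5 and counted them with featureCounts 1.5.0. The authors deposited 3 tables of raw counts per gene with FPKM values scaled to gene length and library total, normalized counts, and their own DESeq2 fold changes and p-values, of which counts and FPKM were used here. Joining on the identifiers gave 26939 genes. Where the same library stood in several files, 95230 counts were compared and 0 differed. Genes not listed for a library were set to 0.

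The 5 members, the gene lists and the comparisons were chosen with earlier results of these data known. Counts were tested in R 4.3.3 with edgeR 4.0.16 (TMM, filterByExpr, robust quasi-likelihood test, Benjamini-Hochberg adjustment), on the 4 libraries of each comparison or on all 8 for the difference between genotypes. A call needed an adjusted p no larger than 0.05 together with a log2 change of 0.5 or more in size. Standard errors were taken from the fold change and its F statistic. CPM used TMM factors over 8 libraries. Folds against groups at 0 are bounds against 3 counts per library. The 4 same-numbered library correlations between groups were -0.000984 to 0.135, so replicate numbers were not treated as pairs.

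The alternatives were DESeq2 1.42.0, DESeq2 size factors, no filter beyond 1 count, at least 10 counts in every library, a replicate block, all 8 libraries in 1 model, and leaving out each library in turn. The test was checked on simulated counts. Genes named are the 5 members, the 3 most correlated genes of each, the 10 widest genotype ratios, up to 3 nearest neighbours, and up to 4 called genes per list. Further neighbours were named after their values were seen. Positions matched GENCODE M21 for 95.5% of genes. Some results for genes in the lists and neighbourhoods are not reported here.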

Additional observations from a re-analysis of the deposited data

How the results depend on the processing

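In WT TAMs, αMARCO changed 3236 genes, 164 with all 8 libraries in 1 model, 3086 with the replicate block and between 1940 (without the first WT αMARCO library) and 3951 with 1 library left out. Negr1 and Asb2 were called under all 10 alternatives and Adrb1 under 9, and the block changed no call of a member. With 1 library left out, the log2 fold change of Ankdd1a lay between -0.26 (without the first WT control library) and 0.56. Between control genotypes the count was 2025, 364 in the model of 8 libraries, 2395 with the replicate block and 1493 to 2232 with 1 library left out. For αMARCO in Unc93b1 3d/3d TAMs, the count of 0 became 60 by DESeq2, 174 without the filter, 5 with the block, 1 in the model of 8 libraries, and 1 to 5500 with 1 library left out. Between genotypes under αMARCO it became 214, 107, 97, 108 and 17 to 6366 in the same order. For the difference between genotypes it became 211 by DESeq2, 152 without the filter, 0 with the block and 0 to 6440 with 1 library left out. The highest of the last 3 ranges came without the first Unc93b1 3d/3d αMARCO library, and without the second the counts were 571, 1252 and 612. The cause was not tested. Where a group kept 1 library, that library was assumed to vary like the others. With 2 libraries per group and 3 counts as the floor, Negr1 and 4930570G19Rik levels under 0.204 CPM in the mutant could not be seen.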

Other observations

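The other genes with the widest gap between genotypes were examined for the αMARCO response in WT that 3 of the 5 members showed. Fcrl5, an Fc receptor-like protein of B lineage cells, had at least 1509 counts in each WT library and at most 9 in each Unc93b1 3d/3d library, and its log2 fold change with αMARCO in WT was -1.58 (adjusted p = 9.18e-05 by edgeR's quasi-likelihood test). Itgad, an integrin alpha subunit of macrophages, had 82 to 656 counts in WT and at most 4 in the mutant, and fell by 2.74 on the log2 scale (adjusted p = 3.85e-05 by edgeR). Cd300e, a marker of nonclassical monocytes, fell by 1.16, Ptprm, a receptor tyrosine phosphatase, by 1.27 and Klra17, a Ly49-like receptor, by 1.36 on the log2 scale, and all were called by edgeR. Pydc3, an interferon-inducible pyrin domain protein, had 1228 to 1760 counts in WT and at most 59 in the mutant, with a log2 fold change of -0.13 with αMARCO (adjusted p = 0.267 by edgeR). Htra4, a secreted serine protease, had 202 to 299 counts in WT and at most 20 in the mutant, with a log2 fold change of -0.00215 (adjusted p = 0.993 by edgeR). Genes with a wide genotype gap were therefore found both with and without a called αMARCO response, as among the 5 members.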
